A study of Mus musculus with 16 samples.

Results

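Neuromesodermal progenitors (NMPs) of chimeric mouse embryos were described from the cells whose deposited atlas label was "NMPs" or "NMPs/Mesoderm-biased". Of 37841 analysed single cells, 299 carried 1 of these labels, 217 as NMPs and 82 as NMPs/Mesoderm-biased, and both labels were kept apart. The labels had been transferred by the authors from a reference atlas of gastrulation by similarity of expression. The levels of marker genes and the differences between both labels are therefore given as descriptions.

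NMPs lie at the caudal end of the elongating embryo, in the caudal lateral epiblast and later in the tail bud. They co-express the mesoderm regulator *T* (Brachyury) and the neural regulator *Sox2*, and supply both the spinal cord and the paraxial mesoderm of the trunk and tail. Wnt and FGF signals, acting with *Cdx* factors, maintain them and open the *Hox* clusters from 3′ to 5′, so that posterior *Hox* genes come on as the axis extends. Retinoic acid from the somites and *Tbx6*, induced on the way to paraxial mesoderm, draw cells out of this state. STAT3, the transcription factor downstream of LIF and related cytokines, is known in this field mainly for the self-renewal of embryonic stem cells (ESCs).

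The study injected tdTomato-positive *Stat3* null ESCs of the CD1 background into WT CD1 blastocysts, collected chimeras from E7.5 to E9.5 and sorted each pool into tdTomato-positive (null) and tdTomato-negative (WT) cells for 3′ single-cell RNA sequencing (10x Genomics). Null cells thus came from an ESC line and grew beside WT host cells in the same embryos. No sample held the progeny of injected WT ESCs. Loss of *Stat3* therefore cannot be told apart from ESC origin, culture or the tdTomato transgene in any comparison of null with WT. Per the labels, a pool held about 4 embryos at E8.5 and 1 embryo at E9.5, with 2 pools at E7.5, 2 at E8.5 and 4 at E9.5. The methods describe 6 embryos at E8.5, fewer than 2 pools of about 4, and only 2 at E9.5, each processed on its own, so some of the 4 E9.5 libraries of a genotype may share an embryo. The number of separate embryos may then be below the n given, p-values measure the spread between libraries only, and those that rest on E9.5 libraries may be too small. The sample titles give the null and WT samples of a pool the same replicate number, but the cell table names libraries by run and index, and nothing ties these names to the titles. Libraries are therefore named by letters within a group and were not paired.

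Libraries of E8.5 and E9.5 held NMPs in each of 12 cases, and none of the 5038 analysed E7.5 cells was labelled NMP. At E7.5 the count of 0 among 2532 null cells allows a share of up to 0.118%, and 0 among 2506 WT cells one of up to 0.12%. NMPs per library numbered 22 and 64 in WT and 45 and 14 in null at E8.5, and 14, 6, 8 and 17 in WT and 11, 9, 1 and 6 in null at E9.5. Median depth per NMP was 17071 to 30359 unique molecular identifiers (UMIs) per library at E8.5 and 27050 to 47680 at E9.5. Cell barcodes of 6 of the 299 cells (2.01%) also occurred in another library, against 978 of all analysed cells (2.58%), and none occurred as an NMP in both.

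The targeted gene was read first. *Stat3* had 10 UMIs in WT NMPs at E8.5 and 4 at E9.5, or 5.53 and 2.85 UMIs per 1000000 UMIs of the summed cells (CPM), and 1 UMI in null NMPs at each stage. The ratio of WT to null was 8.82 at E8.5 (95% interval 1.25 to 383) and 2.95 at E9.5 (95% interval 0.292 to 145), from counting error alone, so only the E8.5 interval lies above 1. The deletion removes internal exons while 3′ tags lie downstream of them, so this level does not by itself show the deletion. A tdTomato UMI was present in every NMP of 5 null libraries and in 9 of 14 NMPs (64.3%) of E8.5 null B, the library that also stands apart in *Grb10* below. In WT libraries, 6 NMP-labelled cells with a tdTomato UMI were left out.

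The share of NMPs was not shown to differ between null and WT cells, though the few libraries leave room for a sizeable change. It was lower in every E9.5 library than in any E8.5 library. Shares are of the sorted cells of a library, not of the embryo. At E8.5, NMPs were 0.865% and 1.67% of the cells of the WT libraries and 1.17% and 1.22% of the null libraries. At E9.5 they were 0.455%, 0.227%, 0.42% and 0.43% of the WT libraries and 0.254%, 0.373%, 0.0628% and 0.388% of the null libraries. Null and WT libraries overlapped at both stages, with E9.5 null C, which held a single NMP, lowest of all.

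The mean share at E8.5 was 1.20% ± 0.0337 in null libraries against 1.27% ± 0.572 in WT libraries (SD, n = 2 each, two-sided exact permutation p = 1, where the smallest possible p is 0.333). At E9.5 it was 0.270% ± 0.150 against 0.383% ± 0.105 (SD, n = 4 each, exact permutation p = 0.2, smallest possible 0.0286). In edgeR's quasi-likelihood test on cell numbers of all cell types, the log2 fold change of NMPs, null over WT, was −0.10 (SE 0.44, adjusted p = 0.984) at E8.5 and −0.52 (SE 0.61, adjusted p = 0.965) at E9.5. Of 68 cell types tested at E8.5 none was called (0.0%) and of 71 at E9.5 1 was called (1.41%), neither of them an NMP label. The change of the log2 fold change between stages was −0.38 (SE 0.80, adjusted p = 1.00).

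**Figure D1:**
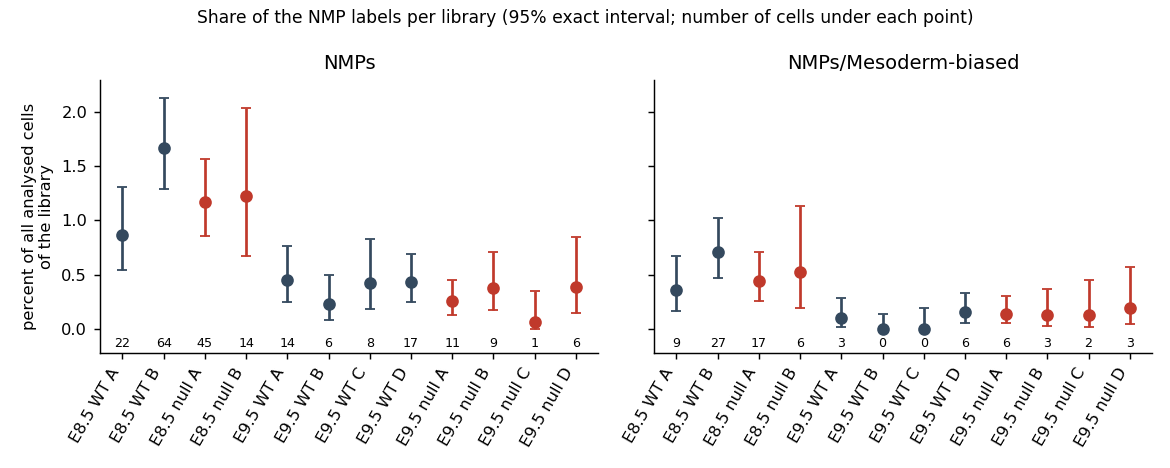
Percent of the analysed cells of each library that carried the label NMPs (left) or NMPs/Mesoderm-biased (right), with WT libraries in dark blue and null libraries in red. Bars are 95% exact binomial intervals, which cover counting error only, and the number under each point is the number of cells. WT and null points overlap at E8.5 and E9.5, and the E9.5 points lie below the E8.5 points for NMPs.

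The mesoderm-biased label was rarer and its split between genotypes was uneven at E9.5. It took 29.0% and 29.7% of the cells of both labels in WT and 27.4% and 30% in null at E8.5. At E9.5 it took 17.6%, 0%, 0% and 26.1% in the WT libraries and 35.3%, 25% and 33.3% in the null libraries with at least 6 NMPs. The null libraries lay above or within the top of the WT range, since E9.5 null B (25%) was below E9.5 WT D (26.1%).

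The mean at E9.5 was 31.2% ± 5.47 in null (SD, n = 3) and 10.9% ± 13.1 in WT (SD, n = 4), a difference that did not pass the exact permutation test (two-sided p = 0.0857). Of all cells at E9.5, 0.146% ± 0.0329 carried the label in null libraries and 0.0623% ± 0.0753 in WT libraries (SD, n = 4 each, exact permutation p = 0.114), and its edgeR log2 fold change was 0.96 (SE 1.03, adjusted p = 0.965). The E9.5 difference rests on 23 cells, 14 null and 9 WT.

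The cells carried the markers of their label. *T*, the Brachyury factor of the primitive streak and notochord, stood at 100.8 and 117.6 CPM in the NMPs of the E8.5 WT libraries and 61.5 and 216 in the null libraries. At E9.5 *T* was 222, 158.5, 43.5 and 88.6 CPM in WT and 169, 118 and 27.8 in null. The spread within a genotype was as wide as that between genotypes, and WT and null overlapped at both stages.

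*Sox2*, which marks neural and pluripotent cells, was 175 and 168 CPM in WT and 184 and 146 in null at E8.5, and 311, 139.5, 214 and 238 in WT and 208, 180 and 330 in null at E9.5. *Nkx1-2*, a homeobox gene typical of the caudal lateral epiblast, was 83.3 and 81.9 CPM in WT and 91.9 and 123 in null at E8.5. At E9.5 it was 79.5, 44.4, 31.0 and 80.7 CPM in WT and 66.7, 106.5 and 83.5 in null. Only at E8.5, with 2 libraries each, did both null libraries lie above both WT libraries.

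*Cdx2*, a caudal homeobox factor upstream of the trunk *Hox* genes, was 283 and 268 CPM in WT and 241 and 333 in null at E8.5, and 306, 298, 155 and 165 in WT and 219, 227 and 226.5 in null at E9.5. Genotypes overlapped for *Cdx2* and *Sox2* at each stage. Averaged over both stages, the log2 fold change of null over WT was −0.04 for *T* (SE 0.55), −0.02 for *Sox2* (SE 0.15), 0.38 for *Nkx1-2* (SE 0.18) and 0.01 for *Cdx2* (SE 0.14). None passed edgeR's test, and the SE of *T* leaves room for a change of 2-fold.

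**Figure D2:**
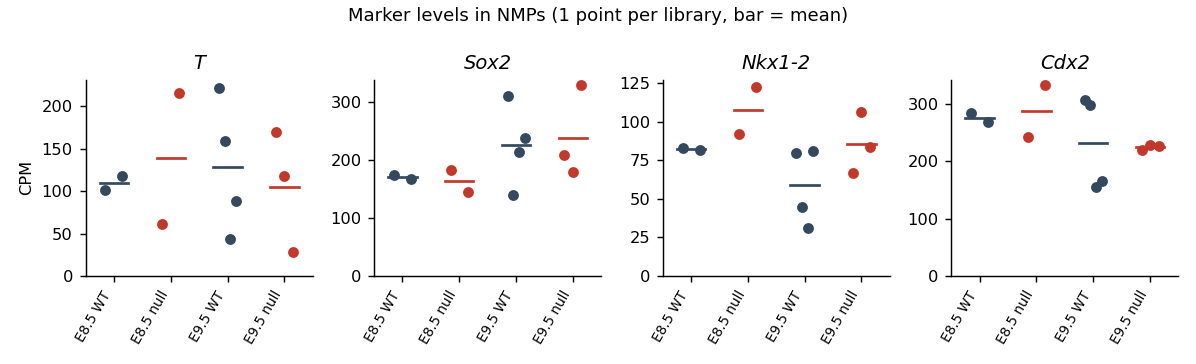
CPM of *T*, *Sox2*, *Nkx1-2* and *Cdx2* in the NMPs of each library by stage and genotype, with WT in dark blue and null in red, 1 point per library and a bar at the mean of the group. WT and null points overlap for *T*, *Sox2* and *Cdx2* at both stages, with *T* between 27.8 and 222 CPM at E9.5.

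Among 84 cell types, ranked by CPM over all their cells, NMPs were 3rd and the mesoderm-biased label 2nd for *Nkx1-2* (84.8 and 87.7 CPM), below the caudal epiblast at 217 CPM. For *Cdx2* the mesoderm-biased label was 1st (367 CPM) and NMPs 4th (249 CPM). For *T* they were 5th (271 CPM) and 12th (111 CPM), far below the node at 1176 CPM, and for *Sox2* 22nd (140 CPM) and 17th (199 CPM). *Tbx6*, an early gene of the presomitic mesoderm, was at 4.93 CPM in NMPs and 13.7 CPM in the mesoderm-biased label, against 98.1 CPM in presomitic mesoderm. *Msgn1*, another presomitic gene, was at 0 UMIs in NMPs. Other genes of the presomitic and paraxial list were expressed, and its 20 genes summed to 308 to 698 CPM in the NMPs of the E8.5 libraries and 107 to 482 CPM at E9.5. This sum was not compared with that of presomitic mesoderm.

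Co-expression within single cells was counted after each cell was thinned to 10000 UMIs. *T* and *Sox2* UMIs were found together in 35 of 145 NMPs at E8.5 (24.1%, or 51% without thinning) and in 26 of 72 at E9.5 (36.1%, or 59.7% without thinning). In the mesoderm-biased label the thinned share was 42.4% and 47.8%. It was 2.49% and 4.05% in spinal cord progenitors, 7.63% and 7.69% in presomitic mesoderm, and 0.0564% (1 of 1773 cells) at E8.5 in erythroid cells, which should lack both genes. Other caudal and axial cells also held both, at 13% and 37.9% of notochord cells (3 of 23 and 11 of 29) and 21.7% and 20% of hindgut cells (10 of 46 and 13 of 65), so that the pair does not mark NMPs alone. *Nkx1-2* was at 0 to 1.08 CPM in notochord and hindgut. Summed over libraries, NMPs with *Sox2* alone outnumbered those with *T* alone in each genotype and stage, at 34 against 19 cells in E8.5 WT, 27 against 14 in E8.5 null, 23 against 3 in E9.5 WT and 11 against 3 in E9.5 null. E8.5 null B went the other way, with *T* in 71.4% and *Sox2* in 50% of its 14 NMPs, so that the E8.5 null count rests on null A (35.6% and 71.1% of 45). Between genotypes the thinned share of double-positive NMPs was 20.7% ± 1.01 in null against 28.4% ± 4.82 in WT at E8.5 (SD, n = 2 each) and 38.6% ± 19.6 in null (SD, n = 3) and 28.8% ± 14.6 in WT (SD, n = 4) at E9.5. The average difference over stages was 1.03 percentage points (two-sided exact permutation p = 0.886, n = 5 null and 6 WT libraries), and the stages went opposite ways.

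The atlas stage to which NMPs mapped, a measure of developmental progress, had a mean of 8.54 days (null) and 8.53 days (WT) among E8.5 libraries. Among E9.5 libraries the mean was 8.78 days (null) and 8.69 days (WT). Averaged over both stages, null minus WT was 0.0492 days (two-sided exact permutation p = 0.386, n = 5 and 6). No NMP mapped beyond E9.0, and 20 of 45 WT NMPs collected at E9.5 mapped to E8.5. Mapped stage thus moved far less than the day between collections. It therefore cannot show that null and WT NMPs kept the same pace.

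Few genes separated null from WT NMPs. In 11 libraries with at least 6 NMPs (2 null and 2 WT at E8.5, 3 null and 4 WT at E9.5), UMIs were summed per library and 6045 genes were tested with edgeR, where a gene was called at a Benjamini-Hochberg adjusted p under 0.05 and an absolute log2 fold change over 1. No gene was called at E8.5 (0.0%, with 157 genes at an unadjusted p under 0.05). At E9.5, 6 genes were called (0.0993%, 2 higher and 4 lower in null), and 6 were called on the average of both stages (0.0993%, 2 higher and 4 lower). DESeq2 called 0 genes at E8.5, 4 at E9.5 and 6 on the average, and limma-voom called 0 (with 221 at an unadjusted p under 0.05), 4 and 4, while 29 genes passed the unadjusted p at E8.5 by DESeq2. With E8.5 null B or with WT A of E8.5 left out the E8.5 count was 4, and with E8.5 null A left out it was 2, and the E9.5 count was 2 without E9.5 WT A and 3 without E9.5 null A or null B. The average gave 5 to 7 calls whichever library was left out. The 8 genes called in all were *Zdbf2*, *Cwc22*, *H19*, *Hist1h4i*, *Pusl1*, *Lmo2*, *Csnk2a1* and *Pttg1*. Of these, *Hist1h4i*, *Pusl1* and *Lmo2* were too low in null to pass the filter on low counts. They passed through WT libraries and were bound to be lower in null. *H19* (E8.5 null A) and *Grb10* below (E8.5 null B) reached the filter only in the null library named, and needed WT libraries to pass. *Zdbf2* and *H19* are imprinted genes, a class that the authors left out of the label transfer, so the labels did not use them.

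*Zdbf2*, a paternally expressed imprinted gene (GRCm38, chr1:63273265-63314576), was higher in null NMPs. It stood at 81.8 and 67.7 CPM in WT and 165 and 128 in null at E8.5, and at 79.5, 139.5, 137 and 86.6 in WT and 264, 232 and 191 in null at E9.5. Every null library lay above every WT library of its stage. On the average of both stages the log2 fold change was 1.09 (SE 0.15, edgeR adjusted p = 1.09e-06) and 1.14 at E9.5 (SE 0.19, edgeR adjusted p = 3.33e-04).

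RefSeq lists 2 starts for *Zdbf2*. The 250 bases before the distal one (GRCm38.p6, plus strand, chr1:63200108-63200357) are shown because they hold the only match to the STAT motif TTCNNNGAA among the promoters of the called genes. The match starts 242 bases before the start and is in capitals.
Zdbf2: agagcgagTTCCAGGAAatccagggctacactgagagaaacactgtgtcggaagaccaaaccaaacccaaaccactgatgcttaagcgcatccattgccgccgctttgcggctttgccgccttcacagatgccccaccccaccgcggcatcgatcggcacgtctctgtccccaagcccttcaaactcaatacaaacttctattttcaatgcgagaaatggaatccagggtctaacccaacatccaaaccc

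The motif, which reads the same on both strands, occurred in 1 of 6 promoters of the 5 called genes that had an entry, in 5.30% of the promoters of tested genes and in 7.02% of all 32851 promoters of this length. It was in 0 of 4 promoters of the marker genes and in 1 of 32 promoters of the STAT3 pathway list. These are matches of letters and say nothing of binding.

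*H19*, a maternally expressed imprinted long non-coding RNA (chr7:142575529-142578143), was lower in null NMPs. It was at 65.7 and 72.1 CPM in WT and 31.2 and 5.84 in null at E8.5, and at 161, 82.4, 161 and 197 in WT and 8.33, 4.73 and 11.9 in null at E9.5. No null library reached the lowest WT library of its stage, and 8 of 27 null NMPs at E9.5 had an *H19* UMI. *H19* could not have passed the filter on low counts without WT libraries, which favored this direction. Null over WT, its log2 fold change was −2.91 on the average (SE 0.27, edgeR adjusted p = 7.29e-11), −4.32 at E9.5 (SE 0.39, edgeR adjusted p = 5.24e-11) and −1.50 at E8.5, which did not pass (adjusted p = 0.139). The change between stages was −2.82 (SE 0.59, edgeR adjusted p = 0.107), so a larger effect at E9.5 was not shown. *Igf2*, the oppositely imprinted neighbor of *H19*, had a log2 fold change of 0.57 on the average (edgeR adjusted p = 0.344).

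*Cwc22*, a splicing factor that takes part in loading the exon junction complex (chr2:77881159-77946375), was higher in null NMPs, at 46.7 and 72.1 CPM in WT and 107 and 175 in null at E8.5. At E9.5 it was 43.4, 12.7, 62.1 and 59.1 CPM in WT and 203, 114 and 139 in null. The ranges did not overlap at either stage. Its log2 fold change was 1.37 on the average (SE 0.21, edgeR adjusted p = 6.02e-04) and 1.62 at E9.5 (SE 0.29, edgeR adjusted p = 0.0072). The E9.5 call, but not that of the average, was lost without E9.5 WT A (1.54, adjusted p = 0.197), E9.5 null A (1.35, adjusted p = 0.116) or E9.5 null D (1.66, adjusted p = 0.0714).

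*Hist1h4i*, which encodes a histone H4 (chr13:22040636-22041362), was 26.3 and 45.4 CPM in WT and 15.2 and 8.76 in null at E8.5, and 26.5, 50.7, 77.6 and 45.3 in WT and 11.1, 11.8 and 7.95 in null at E9.5. Null libraries lay below the WT libraries of their stage, a direction fixed by the filter on low counts. The log2 fold change was −1.80 on the average (SE 0.30, edgeR adjusted p = 1.84e-04) and −2.16 at E9.5 (SE 0.45, edgeR adjusted p = 0.00886). Histone H4 genes are near-identical copies, so reads may be split among them and the value is uncertain. The E9.5 call was lost when E9.5 WT C was left out (−1.85, adjusted p = 0.215), and so it was without E9.5 null A (−2.18, 0.116), null B (−2.29, 0.195) or null D (−2.05, 0.104). The average was not called by limma-voom (−1.63, adjusted p = 0.0535).

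*Pusl1*, a pseudouridine synthase-like gene (chr4:155887879-155891781), was 23.4 and 31.2 CPM in WT and 5.59 and 8.76 in null at E8.5, and 19.3, 50.7, 21.7 and 25.6 in WT and 5.56, 4.73 and 3.97 in null at E9.5. Every null library was under 10 CPM and every WT library above. *Pusl1* passed the filter on low counts through WT and so was bound to be lower in null. Its log2 fold change was −2.23 on the average (SE 0.42, edgeR adjusted p = 0.00103), and the call was lost by a small margin without E8.5 WT B (−2.10, adjusted p = 0.0564) or E8.5 null A (−1.995, adjusted p = 0.051).

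*Csnk2a1*, the catalytic alpha subunit of casein kinase 2 (chr2:152226839-152281852), was 94.9 and 86.4 CPM in WT and 56.0 and 64.2 in null at E8.5, and 89.1, 76.1, 86.9 and 88.6 in WT and 41.7, 26.0 and 47.7 in null at E9.5. WT libraries lay close together and above all null libraries. The log2 fold change was −1.22 at E9.5 (SE 0.27, edgeR adjusted p = 0.0246), while the average, −0.92, passed the adjusted p (0.00518) but not the fold. The E9.5 call was lost without E9.5 WT A (−1.22, adjusted p = 0.0988), WT C (−1.21, 0.107), WT D (−1.19, 0.0957), null A (−1.30, 0.116) or null B (−0.97, 0.77).

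*Pttg1*, securin, which holds back separase until anaphase (chr11:43420250-43426251), was 131 and 120 CPM in WT and 122 and 123 in null at E8.5. At E9.5 it was 205, 228, 161 and 195 CPM in WT and 58.3, 106.5 and 131 in null. The groups were alike at E8.5 (log2 fold change −0.03) and apart at E9.5 (−1.01, SE 0.20, edgeR adjusted p = 0.0072). Without E9.5 null A the E9.5 value was −0.72 (adjusted p = 0.328), and without E9.5 null B it was −1.12 (adjusted p = 0.0563).

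*Lmo2*, a LIM-domain regulator of blood and endothelial development (chr2:103957986-103981878), was 27.8 and 15.1 CPM in WT and 9.59 and 5.84 in null at E8.5, and 74.7, 31.7, 34.2 and 27.6 in WT and 19.4, 4.73 and 0 in null at E9.5. The null libraries lay below the WT libraries of their stage, a direction fixed by the filter on low counts. The log2 fold change was −1.75 on the average (SE 0.39, edgeR adjusted p = 0.024). The call was lost in 10 of 19 alternatives. Among them were the fits without E8.5 WT A (−1.54, adjusted p = 0.194), E8.5 null A (−2.01, 0.232), E8.5 null B (−1.68, 0.0611), E9.5 WT A (−1.52, 0.381), E9.5 WT C (−1.80, 0.0529), E9.5 null B (−1.57, 0.406) or E9.5 null D (−1.55, 0.0953).

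Erythroid transcripts were lower in null than in WT libraries at E9.5, while at E8.5 null A lay close to WT and only null B was far lower. The summed level of 9 erythroid markers in NMPs was 787 to 812 CPM in WT and 207 to 734 in null at E8.5, and 69.7 to 518 in WT and 7.10 to 22.2 in null at E9.5. The embryonic globin *Hba-x*, one of them, had 1078 UMIs in WT and 787 in null at E8.5, out of 1807475 and 1593762 UMIs in all. At E9.5 it had 320 UMIs in WT and 8 in null. *Gata1*, a regulator that defines erythroid cells, had 1 or 2 UMIs in each of the other groups and 0 in E9.5 null. None of the 9 markers passed the filter on low counts or the exclusion of globins by name, and their part in the *Lmo2* difference was not tested.

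2 further genes passed the adjusted p without the fold, *Tpm3-rs7*, a copy of a tropomyosin gene whose reads may be shared (−0.78 on the average, edgeR adjusted p = 0.00644), and *Tmem14c*, a mitochondrial transporter of the heme pathway (0.70, edgeR adjusted p = 0.0129).

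**Figure D3:**
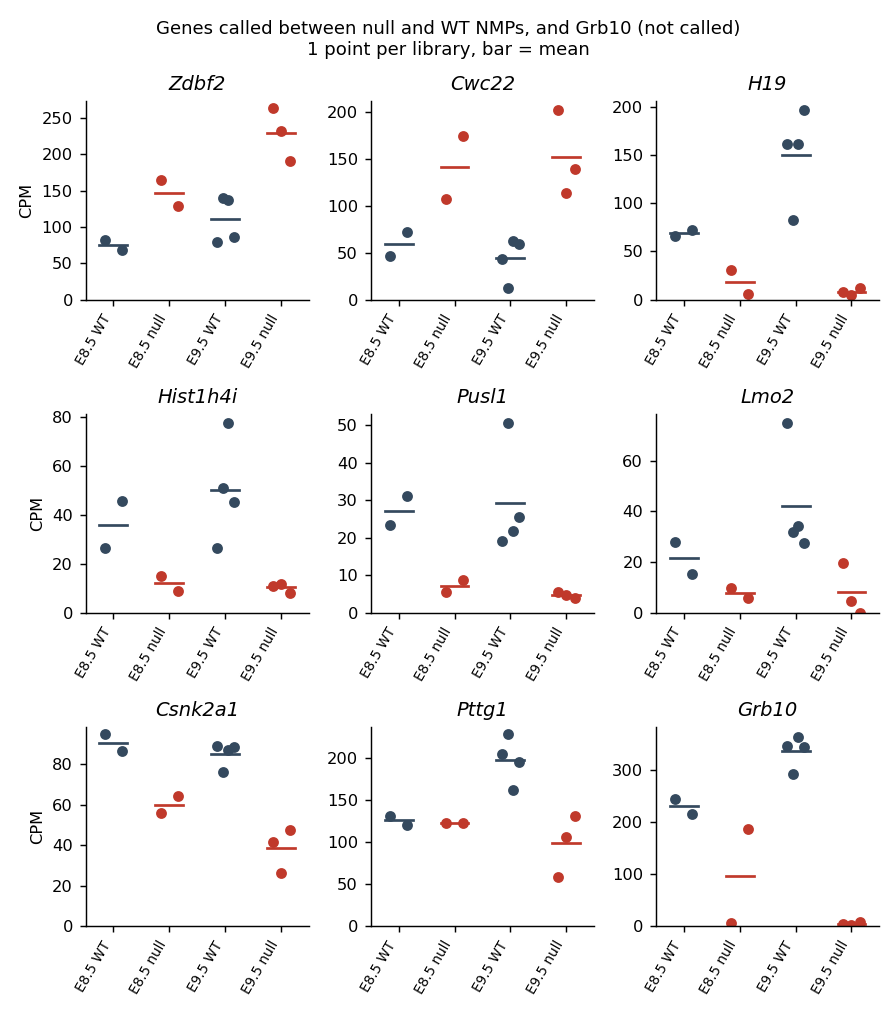
CPM of the 8 genes called between null and WT NMPs, and of *Grb10*, in the NMPs of each library, with WT in dark blue and null in red, 1 point per library and a bar at the mean of the group. Null points lie above the WT points of their stage for *Zdbf2* and *Cwc22* and below them for *H19*. One E8.5 null point of *Grb10*, at 187 CPM, lies near the WT points while the other null points are under 8 CPM.

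*Grb10*, an imprinted adaptor that dampens insulin and growth factor signaling (chr11:11930508-12038683), was not called, and it was chosen after its values were seen. It stood at 244 and 216 CPM in WT and 5.59 and 187 in null at E8.5, and at 344, 292, 363 and 343 in WT and 2.78, 2.37 and 7.95 in null at E9.5. A *Grb10* UMI was present in every WT NMP, in 6 of 45 NMPs of E8.5 null A, and in 1 of 11, 1 of 9, 0 of 1 and 2 of 6 NMPs of E9.5 null A, B, C and D. Null libraries were thus near 0 with the exception of E8.5 null B, in which all 14 NMPs had a UMI.

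Within E8.5 null B, *Grb10* was at 162 CPM in the 9 NMPs with a tdTomato UMI and at 228 CPM in the 5 without. *H19* in the same library had 2 UMIs in 14 cells (5.84 CPM), on the side of the null libraries. The mesoderm-biased cells showed the same split, with 11.1 CPM in E8.5 null A, 207 in E8.5 null B and 233 and 254 in WT. The log2 fold change of *Grb10* in NMPs was −4.14 on the average (SE 0.89, edgeR adjusted p = 0.469) and −6.36 at E9.5 (SE 1.41, edgeR adjusted p = 0.478). The value at E8.5 was −1.91 (edgeR adjusted p = 1.0), and it ran from −0.28 without E8.5 null A, with no call, to −5.31 without E8.5 null B (edgeR adjusted p = 1.21e-20). On the average it was −3.31 without E8.5 null A (edgeR adjusted p = 4.19e-20) and −5.83 without E8.5 null B (edgeR adjusted p = 5.66e-35), and leaving out any other library gave no call, with adjusted p up to 0.936. With E9.5 libraries alone it was −6.33 (edgeR adjusted p = 1.19e-24). DESeq2 called it on the average (−3.81, adjusted p = 0.00426) and limma-voom did not. Of 26 imprinted genes listed, 24 were in the files and 19 were tested, of which *Zdbf2* was called higher and *H19* lower, and the median log2 fold change of the 19 was −0.05.

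The other genes of the NMP program were counted by list. Since 0.0993% of all genes tested were called on the average of both stages, a count of 0 in lists of this size, *Hox* lists included, says nothing about their members. None of 18 tested NMP and caudal epiblast regulators was called, with a median log2 fold change of −0.05 on the average against −0.00 over all genes tested. *Fgf8*, the ligand that keeps the caudal progenitor zone immature, had −0.46 (SE 0.36) and *Cdx4* −0.03 (SE 0.12). None of 10 Wnt response genes (median −0.27) and none of 11 FGF response genes (median −0.13) was called, nor was *Wnt5b*, a non-canonical ligand of the tail bud, at −0.58 (SE 0.22, edgeR adjusted p = 0.89). The counts were also 0 of 6 retinoic acid genes (median 0.08), 0 of 12 Notch and BMP genes (0.05), 0 of 5 presomitic genes (−0.02) and 0 of 7 neural genes (−0.11).

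Among *Hox* genes, 0 of 12 in paralog groups 1 to 5 (median −0.26), 0 of 11 in groups 6 to 9 (−0.12) and 0 of 10 in groups 10 to 13 (0.29) were called between genotypes. The last median includes genes near 0 UMIs at E8.5, whose fitted values are no bound.

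Of 28 genes of the STAT3 pathway 10 passed the filter on low counts and none was called (median 0.03). *Pim1*, a kinase induced by STAT3, had −0.37 (SE 0.17), *Myc* −0.44, *Mycn* 0.52 (SE 0.28) and *Gbx2*, a target in ESCs, 0.54. *Socs3*, the feedback inhibitor of the pathway, fell under the filter, at 4.38 and 2.67 CPM in WT and 12 and 2.92 in null at E8.5 and at 14.5, 0, 9.31 and 11.8 in WT and 5.55, 0 and 3.97 in null at E9.5. Genotypes overlapped for *Socs3* at both stages, at E9.5 only through the 0 of WT B. Summed over the E9.5 libraries it had 15 UMIs in WT and 3 in null. The ratio of WT to null was 3.69 (95% interval 1.04 to 19.9 from counting error alone). At E8.5 the highest level, 12 CPM, was in a null library. None of 20 S phase genes (median 0.07), 20 G2/M genes (−0.13) and 24 oxidative phosphorylation genes (0.06) was called.

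The same genotype differences were measured in the remaining cells of the same libraries. The log2 fold change there was 1.04 for *Zdbf2* (limma adjusted p = 4.47e-07), 1.48 for *Cwc22* (limma adjusted p = 7.46e-06), −1.82 for *Hist1h4i* (4.79e-04), −1.68 for *Pusl1* (0.0138) and −0.63 for *Csnk2a1* (0.0228). It was −3.37 for *H19* (limma adjusted p = 0.12), −0.63 for *Pttg1* (0.143) and 0.05 for *Lmo2* (0.939). Of 6045 genes, 0 were shown to differ between NMPs and the other cells in their genotype effect (0.0%, with 113 at an unadjusted p under 0.05 by limma). *Lmo2* had the difference −1.72 (SE 0.47, limma adjusted p = 0.999). No gene is therefore shown to respond in NMPs alone.

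The effect of genotype was not shown to differ between stages for any of the 6045 genes by edgeR (0.0%, with 138 at an unadjusted p under 0.05), by DESeq2 (0, with 36) or by limma-voom (0, with 181). With 2 to 4 libraries per group, this does not show that the effects were the same. At E9.5 only 1 null and 1 WT library had at least 6 mesoderm-biased cells, so the fit of this label used the 4 E8.5 libraries. There 0 of 5151 genes were called by edgeR (0.0%, with 210 at an unadjusted p under 0.05), 0 by DESeq2 (with 12) and 0 by limma-voom (with 281), but edgeR called 6 without either WT library. *H19* had −2.13 on the log2 scale (SE 0.44, edgeR adjusted p = 0.622) and *Zdbf2* 0.68 (SE 0.27).

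More genes were called between stages than between genotypes. Posterior *Hox* genes and *Kcnab3* were among the rises called in both genotypes. They had few or no UMIs at E8.5, so their direction was fixed by the filter on low counts. In WT NMPs 149 of 6045 genes were called (2.46%), 129 higher at E9.5 (2.13%) and 20 lower (0.331%). In null NMPs 63 were called (1.04%), 55 higher (0.91%) and 8 lower (0.132%). The WT count was 50 without E8.5 WT B and 96 without E9.5 WT A, and the null count was 37 without E8.5 null B and 34 without E9.5 null A or null B. 48 genes were called in both and in the same direction, which is 32.2% of the WT calls and 76.2% of the null calls. WT had 6 libraries and null 5, and the difference between genotypes in these stage effects is the test that called 0 genes above. Each stage had its own pools, and the spread between the libraries of a stage is the error of these tests.

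Of the 12 *Hox* genes of paralog groups 10 to 13, which pattern the lumbosacral and tail levels, 10 were tested, and 8 rose in WT and 7 in null. *Hoxc11*, *Hoxc12*, *Hoxc13* and *Hoxd12* had 0 UMIs at E8.5 in both genotypes, and *Hoxa11* and *Hoxd11* 0 in WT. *Hoxd13* had 1 UMI in WT and 0 in null at E8.5, and *Hoxd10* had 3 in WT and 5 in null. All these genes passed the filter on low counts through E9.5, where they are high, and were bound to be higher there. The share of the list that was called is therefore not read against that of all genes. *Hoxd11* was at 0 CPM in both WT libraries and at 1.60 and 0 in the null libraries at E8.5, and at 537, 545, 463 and 415 CPM in WT and 500, 414 and 374 in null at E9.5. It went from UMIs in 0 of 86 WT and 2 of 59 null NMPs to UMIs in 45 of 45 and 27 of 27. The stages did not overlap in any library. The level was at least 287-fold higher at E9.5 in WT (against a floor of 3 UMIs over the group) and 346-fold higher in null (95% interval 95.2 to 2866 from counting error).

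*Hoxa11* was at 0 CPM in WT and at 0.80 and 0 in null at E8.5, and at 137, 139.5, 65.2 and 82.7 in WT and 75.0, 85.2 and 115 in null at E9.5, at least 61.0-fold higher in WT. *Hoxc11* had no UMI in any E8.5 library and was at 118, 108, 99.3 and 76.8 CPM in WT and 94.4, 89.9 and 59.6 in null at E9.5, at least 58.8-fold higher in WT and 44.7-fold in null. *Hoxd10* went from 2.92 and 0.89 CPM to 74.7, 82.4, 143 and 51.2 in WT and from 3.20 and 2.92 to 72.2, 87.6 and 63.6 in null. For each of these genes the lowest E9.5 library was far above the highest E8.5 library.

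The promoters of *Hoxd11* and *Hoxa11* are shown because these genes came on together in both genotypes. They are the 250 bases before the start, at chr2:74679308-74679557 (plus strand) for the first *Hoxd11* start and chr6:52245811-52246060 (minus strand) for *Hoxa11*, on GRCm38.p6, and the capitals mark CG pairs.
Hoxd11: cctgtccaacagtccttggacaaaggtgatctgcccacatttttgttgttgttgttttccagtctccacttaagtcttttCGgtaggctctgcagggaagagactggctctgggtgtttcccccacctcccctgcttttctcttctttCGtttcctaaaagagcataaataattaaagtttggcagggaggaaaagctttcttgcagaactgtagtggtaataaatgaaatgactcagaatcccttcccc
Hoxa11: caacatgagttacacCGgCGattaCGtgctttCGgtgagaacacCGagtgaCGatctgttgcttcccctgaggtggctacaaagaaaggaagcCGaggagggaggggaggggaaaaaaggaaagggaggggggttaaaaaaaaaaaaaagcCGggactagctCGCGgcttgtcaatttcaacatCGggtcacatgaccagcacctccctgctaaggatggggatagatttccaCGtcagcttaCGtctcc

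This *Hoxd11* stretch holds 2 CG pairs and the *Hoxa11* stretch 13. The stretch before the second *Hoxd11* start, which is not printed, holds 20. The median over 9 promoters of 7 of the 12 posterior *Hox* genes was 20 CG pairs, against 18 for the promoters of all tested genes and 6 for all promoters. The STAT motif was in 0 of the 9.

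The most 5′ genes were lower. *Hoxd12* was at 0 in every E8.5 library and at 48.2, 31.7, 40.4 and 7.88 CPM in WT and 66.7, 42.6 and 15.9 in null at E9.5, at least 18.0-fold higher in WT and 23.6-fold in null. *Hoxc13*, at 0 before, reached 33.7, 12.7, 3.10 and 3.94 CPM in WT and 47.2, 11.8 and 3.97 in null (at least 8.16-fold and 11.8-fold). *Hoxd13* was at 31.3, 19, 15.5 and 13.8 CPM in WT and 19.4, 28.4 and 7.95 in null, against 1 UMI in all E8.5 NMPs. All 3 were called in both genotypes.

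*Hoxc12* varied most between E9.5 libraries, from 1.97 to 84.3 CPM in WT and from 0 to 83.3 in null, and was not called (edgeR adjusted p = 0.373 and 0.509) although it had no UMI at E8.5. *Hoxa13* reached 4 UMIs in WT and 6 in null and was not tested, and *Hoxb13* had none in any library. The calls of *Hoxc13* were lost without E8.5 WT A (edgeR adjusted p = 0.103), E8.5 WT B (0.324), E9.5 WT B (0.0585) or E9.5 null B (0.0552) in WT, and without E8.5 null A (0.344), E8.5 null B (0.0799) or E9.5 null B (0.0567) in null. That of *Hoxd13* was lost without E8.5 WT B (0.0831) in WT and E8.5 null A (0.235) in null, and that of *Hoxd12* without E8.5 null A (0.098) in null.

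*Hoxc10* and *Hoxa10* were already present at E8.5 and divided the E8.5 libraries across genotypes. *Hoxc10* was at 126 and 12.5 CPM in WT and 137 and 61.3 in null at E8.5, and at 614, 755, 487 and 589 in WT and 644, 537 and 525 in null at E9.5. *Hoxa10* was at 74.5 and 6.23 CPM in WT and 48.8 and 20.4 in null at E8.5. *Hoxc10* was called in WT (3.18, SE 0.67, edgeR adjusted p = 0.0419) but lost the call in 11 of 19 alternatives, and *Hoxa10* was not called (2.32, edgeR adjusted p = 0.136).

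*Cdx1*, a caudal factor induced by Wnt and retinoic acid, split the E8.5 libraries the other way, at 19 and 134.5 CPM in WT and 16 and 178 in null. Its level at E9.5 was 0 to 6.21 CPM in all libraries, and the fall was not called (−4.59 in WT, SE 1.68, edgeR adjusted p = 0.224).

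**Figure D4:**
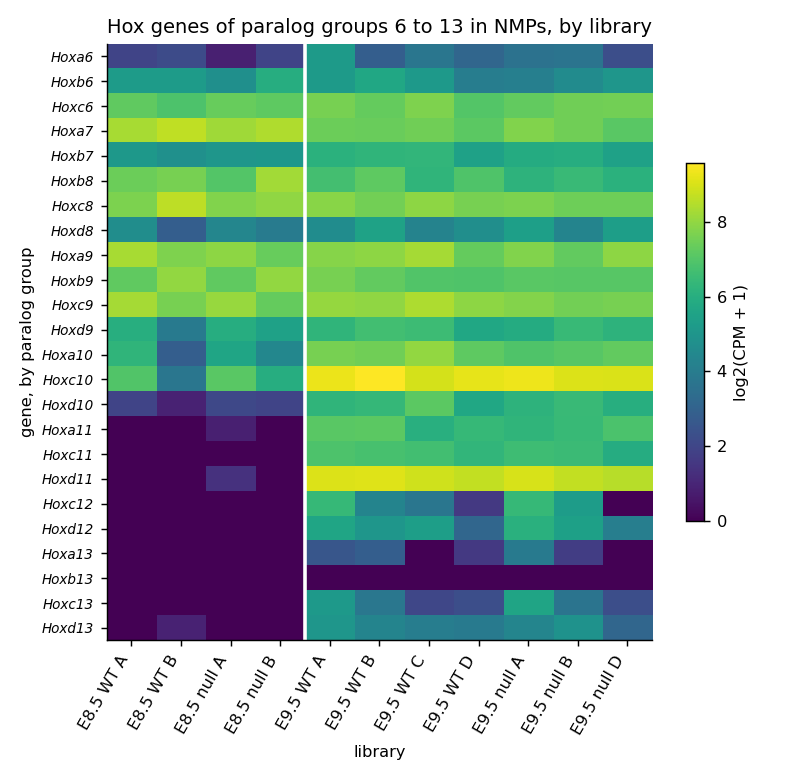
Levels of the *Hox* genes of paralog groups 6 to 13, ordered by group from top to bottom, in the NMPs of each library, as log2(CPM + 1), with the white line between E8.5 libraries (left) and E9.5 libraries (right). Paralog group 11 is dark at E8.5 and light at E9.5, where *Hoxd11* reached 374 to 545 CPM, in WT and null alike, while groups 12 and 13 are lighter at E9.5 in most libraries and *Hoxb13* is dark in all.

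Summed over the 12 posterior genes, NMPs had 20.5 to 203 CPM per library at E8.5 and 1315 to 1896 at E9.5. Among 71 cell types at E9.5, ranked by CPM over all cells, NMPs were 2nd for *Hoxc10* (591 CPM, after the mesoderm-biased label at 744) and 5th for *Hoxd11* (458 CPM, with the mesoderm-biased label 2nd at 636). Presomitic mesoderm had 552 CPM of *Hoxd11* and erythroid cells, which should lack it, 1.64. Other tail bud types ranked beside the NMP labels, and these ranks were not tested.

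Anterior and trunk *Hox* genes moved less and in both directions. In groups 1 to 5, where 12 genes were tested, 1 rose in WT, *Hoxa5* (1.44, SE 0.30, edgeR adjusted p = 0.00102), and 0 were called in null. In groups 6 to 9, *Hoxa7* fell in WT (−1.28, SE 0.16) and passed the adjusted p alone in null (−0.91), *Hoxb8* fell in null (−1.48, edgeR adjusted p = 0.0419) and *Hoxb7* and *Hoxc8* passed the adjusted p alone in WT, the former upward. *Hoxa7* was at 317 and 399 CPM in WT and 290 and 339 in null at E8.5 and at 140 to 180 in WT and 139 to 217 in null at E9.5, with no overlap between stages. The call of *Hoxa5* was lost without E8.5 WT B (1.13, edgeR adjusted p = 0.231). The call of *Hoxb8* was lost without E8.5 null B (−0.86, edgeR adjusted p = 0.164) and without 5 of the E9.5 libraries.

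Among NMP regulators, *Wnt5a*, a non-canonical Wnt ligand needed for axis extension, rose in WT (1.14, SE 0.27, edgeR adjusted p = 0.0225). In WT it was at 133 and 73.9 CPM at E8.5 against 335, 247, 236 and 163 CPM at E9.5, and in null at 123 and 73.0 CPM against 211, 211 and 151 CPM. Every E9.5 library lay above every E8.5 library in each genotype. Its call was lost without E8.5 WT B (0.73, edgeR adjusted p = 0.27), E9.5 WT B (1.13, 0.0892), E9.5 WT C (1.14, 0.101) or E9.5 null A (1.13, 0.0615).

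*Epha5*, an ephrin receptor, fell in both genotypes. It was at 257 and 400 CPM in WT and 298 and 429 in null at E8.5, and at 36.1, 82.4, 80.7 and 84.7 in WT and 52.8, 114 and 43.7 in null at E9.5. The log2 fold change was −2.39 in WT (SE 0.39, edgeR adjusted p = 0.0131) and −2.38 in null (SE 0.43, edgeR adjusted p = 0.0394), and the null call was lost in 11 of 19 alternatives, with −2.14 (adjusted p = 0.147) without E8.5 null B. *Cdx4* passed the adjusted p alone (−0.77 in WT, edgeR adjusted p = 0.00116). The 4 markers *T* (0.05), *Sox2* (0.33), *Nkx1-2* (−0.51) and *Cdx2* (−0.43) did not pass in WT, with the smallest adjusted p at 0.226 for *Cdx2*.

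*Cited1*, a transcriptional co-regulator, fell from 57.0 and 59.7 CPM to 9.63, 12.7, 21.7 and 21.7 in WT and from 36.0 and 120 to 16.7, 11.8 and 19.9 in null (−1.89 and −2.13, edgeR adjusted p = 0.00613 and 0.0179). *F11r*, a junctional adhesion molecule of epithelia, fell from 20.4 and 35.6 CPM to 0 to 11.8 in WT (−2.14, edgeR adjusted p = 0.00971), and from 23.2 and 55.5 CPM to no UMI in null, at least 10.4-fold lower. *Hist1h4h*, another histone H4 copy, and *Cenpx*, a centromere protein, fell by 1.58 and 1.11 on the log2 scale in WT and by 1.50 and 1.08 in null. No E9.5 library reached an E8.5 library of its genotype for any of these 4 genes. *Cited1* and *F11r* were too low at E9.5 to pass the filter on low counts. They passed through E8.5, so the direction of their change was fixed by the filter. Without E8.5 WT B the WT values were −1.86 for *Cited1* (edgeR adjusted p = 0.0663), −1.65 for *F11r* (0.455) and −0.70 for *Cenpx* (0.395), and without E8.5 WT A that of *Hist1h4h* was −0.84 (0.267). Without E8.5 null B the null values were −1.33 for *Cited1* (edgeR adjusted p = 0.255) and −0.78 for *Cenpx* (0.388), and without E8.5 null A that of *Hist1h4h* was −1.25 (0.329).

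Genes other than *Hox* also rose in both genotypes. Among them *Kcnab3* passed the filter on low counts through E9.5 and so was bound to be higher there. *Kcnab3*, a potassium channel subunit, was at 0 CPM in WT and 1.60 and 2.92 in null at E8.5, and at 55.4, 63.4, 46.6 and 35.4 in WT and 33.3, 23.7 and 39.7 in null at E9.5, at least 28.3-fold higher in WT and 16.4-fold higher in null (95% interval 5.14 to 83.9 from counting error). *Tcf15*, a paraxial mesoderm factor, rose by 1.55 in WT (SE 0.41, edgeR adjusted p = 0.0127) and 2.79 in null (SE 0.54, edgeR adjusted p = 6.2e-04) on the log2 scale. With 23 UMIs in WT and 8 in null at E8.5, *Tcf15* too needed E9.5 to pass the filter, which favored a rise. *Plagl1*, an imprinted zinc finger gene, rose by 1.43 in WT (SE 0.24) and 1.34 in null (SE 0.26). *Sox3*, a neural SoxB1 factor, rose in WT (1.03, SE 0.28, edgeR adjusted p = 0.0192) and had 0.21 in null (SE 0.31), a difference between genotypes that was not called.

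The null call of *Kcnab3* was lost without E8.5 null A (3.15, edgeR adjusted p = 0.117). The WT call of *Tcf15* was lost without E8.5 WT A (1.09, edgeR adjusted p = 0.266) or E9.5 WT A (1.49, 0.073), and that of *Plagl1* without E8.5 WT B (1.02, 0.0953). That of *Sox3* was lost without either E8.5 WT library, E9.5 WT A or E9.5 WT C, with 0.90 (edgeR adjusted p = 0.192) without E8.5 WT A.

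*Smad7*, an inhibitor of TGF-beta signaling, also rose in WT (1.26, edgeR adjusted p = 0.0391, or 0.51 and 0.761 without E8.5 WT B), as did *H19* (1.07, with 0.98 and an adjusted p of 0.0744 without E8.5 WT A). By list, the genes called in WT were 2 of 18 NMP regulators (1 higher), 2 of 5 presomitic genes (1 higher), 1 of 7 neural genes, 0 of 10 Wnt, 0 of 11 FGF and 0 of 6 retinoic acid genes, 1 of 12 Notch and BMP genes and 0 of 10 STAT3 pathway genes. None of 20 S phase and 20 G2/M genes was called. The 2 presomitic genes called, *Tcf15* and *Cited1*, passed the filter on low counts through the stage where they were high. The share called among all genes tested was 2.46%, and with lists of 5 to 20 genes a count of 0 to 2 says little about their members.

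NMPs/Mesoderm-biased cells were compared with NMPs within 6 libraries that held at least 6 cells of each, 4 of E8.5 and 2 of E9.5. Since labels were assigned from expression, the differences are given without a test. Levels of 9129 genes with at least 5 CPM were compared, and 371 (4.06%) were higher and 351 (3.84%) lower in the mesoderm-biased cells of all 6 libraries, with a median log2 difference of −0.01.

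Genes of the cell cycle set the labels apart most. Of 20 G2/M genes 18 were higher in all 6 libraries, with a median log2 difference of 1.27, and of 20 S phase genes 17 were lower in all 6, with a median of −0.72. *Ube2c*, a ubiquitin-conjugating enzyme of mitotic exit, differed by 2.40 ± 0.43, *Aurka*, a spindle kinase, by 1.74 ± 0.42 and *Plk1*, a mitotic kinase, by 1.63 ± 0.33 (SD, n = 6). *Ung*, a uracil-DNA glycosylase, differed by −1.73 ± 0.67, and *Ccne1* and *Ccne2*, the cyclins of S phase entry, by −1.38 and −1.32. Summed G2/M levels were 1884 to 2685 CPM per library in NMPs and 4343 to 6691 in mesoderm-biased cells, and summed S phase levels were 2986 to 4324 and 1703 to 2408, with no overlap in either case. No gene of either list was called between genotypes in NMPs.

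Regulators of the progenitor state followed. Of 20 NMP and caudal epiblast regulators 10 were higher in all 6 libraries and 2 lower, with a median of 0.49. The higher genes were *T* (1.16 ± 0.58), the ligands *Fgf8* (1.32 ± 0.59), *Fgf3* (1.52 ± 0.78), *Fgf17* and *Wnt5b*, and the factors *Cdx4*, *Evx1*, *Sp5*, *Sp8* and *Greb1*. The lower genes were *Sox2* (−0.64 ± 0.56) and *Hes3* (−1.31 ± 0.93), a repressor of neuronal differentiation. *Cdx2* (0.44 ± 0.41) was higher in 5 libraries and *Nkx1-2* (−0.42 ± 0.68) in 2.

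Of 10 neural genes at or above 5 CPM 4 were lower in all 6 libraries (median −0.61), among them *Irx3* (−1.39 ± 0.55) and *Sox1* (−1.01 ± 0.18). Of 10 presomitic genes at this level 1 was higher in all 6, *Rspo3*, a Wnt agonist (1.38 ± 0.71), and *Tbx6* was higher in 5 (0.85 ± 0.87). Of 14 Wnt response genes 4 were higher in all 6, among them *Notum*, a feedback inhibitor of Wnt (1.11 ± 0.21). Most posterior *Hox* genes were at or near 0 UMIs in the 4 E8.5 libraries, so that the same direction in all 6 could not be reached for them. In E9.5 WT D and E9.5 null A, *Hoxd11* was higher in the mesoderm-biased label by 0.53 and 0.62 and *Hoxa11* by 0.73 and 1.18. *Hoxd13* went the other way in these libraries, at −0.67 and −0.38. *Hoxc10* (0.44 ± 0.53) and *Hoxd10* (0.35 ± 0.47), which had UMIs at E8.5, were higher in 5 of 6.

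**Figure D5:**
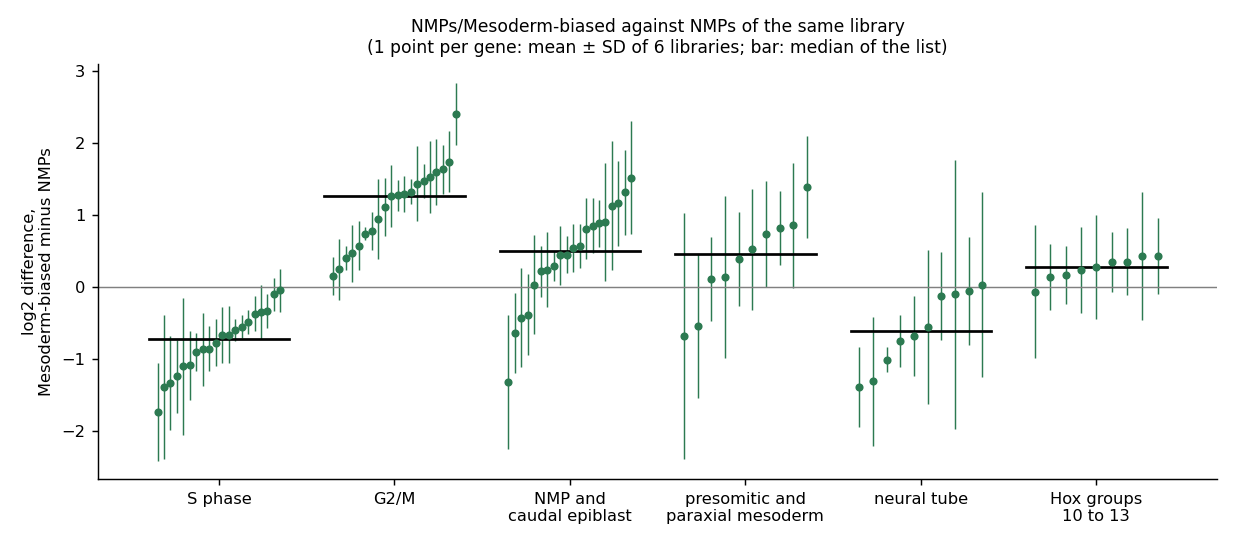
Log2 difference in level between NMPs/Mesoderm-biased and NMPs of the same library, 1 green point per gene as mean ± SD of 6 libraries, for 6 lists, with a black bar at the median of each list. G2/M genes lie above 0 (median 1.27), S phase genes below (median −0.72) and neural genes mostly below (median −0.61), while many *Hox* values of groups 10 to 13 are 0 at E8.5 for lack of UMIs.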

How the data were processed

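Chimeric embryos were measured by 3′ single-cell RNA sequencing in 16 libraries. The authors deposited raw UMI counts per gene and cell and a table of cells with labels, sort, doublet calls and atlas stages. Per the paper's methods and the labels, reads were processed with Cell Ranger on mm10 with a tdTomato sequence added, and cells were kept by the authors at 4 to 5 log10 UMIs, 2000 to 10000 genes, mitochondrial reads under 5% and ribosomal reads under 30%, with doublets (hybrid score over 1) marked. Cells marked as doublets, and any cell of a WT sort that had tdTomato UMIs, were left out here, which left 37841 of 41832 deposited cells. The authors also deposited the percent of mitochondrial UMIs per cell and, as a fraction, the share of nearest atlas cells that carried the transferred label.

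Counts were summed per library and label. Libraries with at least 6 cells of a label entered the fits, at stages with at least 2 such libraries of each genotype. The planned minimum of more than 15 left no such stage. The minimum of 6 was chosen after the cell numbers were seen. Summed depth was 157718 to 1251213 UMIs per library. Genes were tested with edgeR 4.0.16 (TMM, filterByExpr, robust quasi-likelihood, 1 fit over stage and genotype groups), with limma 3.58.1 for NMPs against other cells and DESeq2 1.42.0 as an alternative, in R 4.3.3. Globins, ribosomal, mitochondrial, Gm, Rik, sex-chromosome marker and tdTomato genes were left out of tests, as in the study, but imprinted genes were kept. Library values were compared by exact permutation within stages, two-sided. Coexpression was counted after thinning to 10000 UMIs per cell (numpy 2.4.6). For the comparison of both labels a prior of 2 UMIs, scaled to each library sum, was added. The gene tests and the edgeR abundance test were run on counts simulated with large changes and a constant spread. This check does not cover the uneven spread between the real libraries, and the permutation tests were not simulated. Gene positions are from GENCODE on GRCm38 and promoters from RefSeq (GRCm38.p6).

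The named genes were *Stat3*, the 4 markers, called genes whose null libraries all lay beyond the WT libraries, called genes of 21 lists, and the 5 genes up and down with the largest stage change called in both genotypes; 1 called gene is not reported here. The members, lists and tests were chosen with earlier results of these data known. *Grb10* and the E8.5 levels of *Cdx1*, *Hoxa10* and *Hoxc10* were added after their values were seen. Alternatives covered the test, the size factors, filters, sort checks, cell minimum and each library left out in turn.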

Additional observations from a re-analysis of the deposited data

Results flagged for a closer look

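Of 53 sets of 4 E9.5 libraries tested, 7 held a library far from the others by Dixon's criterion, which chance alone does for about 1 in 20 sets. All 7 were of WT libraries, but so were nearly all sets, since only WT had 4 libraries with at least 6 NMPs. Null libraries entered only for the share of each label, so the flags do not compare the genotypes. E9.5 WT B had the lowest NMP share, 0.227% of its cells, and stood apart in *Csnk2a1* (76.1 CPM, the lowest) and *Cenpx* (101 CPM, the highest). E9.5 WT A stood apart in *Epha5* (36.1 CPM, the lowest) and *Lmo2* (74.7 CPM, the highest). The median of 40306 UMIs per NMP in E9.5 WT C and the median mitochondrial share of 1.91% in E9.5 WT B also lay apart from the other WT libraries.

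Among cells outside the comparisons, 3 NMPs of E9.5 WT D had tdTomato UMIs, 7 in all or 77.5 CPM, and were left out, with 3 more E9.5 cells of the mesoderm-biased label. *Stat3* had 0 UMIs in these 3 cells, where a count of 0 allows up to 33.2 CPM, and *H19* stood at 199 CPM.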

How the results depend on the processing

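The average of both stages called 4 to 9 genes in null against WT NMPs under every alternative run (6 as reported). Of 1379 values of 77 genes and comparisons, 1148 kept their direction and side of the adjusted p threshold. Of the others, 191 no longer passed the adjusted p, 6 newly passed it and 34 changed direction. These counts leave out the fold threshold. *Zdbf2* kept the adjusted p throughout, but its log2 fold change fell as low as 0.977 on the average and 0.993 at E9.5, under that threshold. Without a fold threshold 273 genes (175 higher, 98 lower) were called between stages in WT and 106 (70 higher, 36 lower) in null. With the fold threshold, DESeq2 called 77 and 18, against 149 and 63 by edgeR. With at least 9 cells per library 96 were called in WT and 3 between genotypes at E9.5. Between genotypes at E8.5, 5 genes were called without a filter on low counts, 2 with libraries of 1 stage, and 1 with both labels summed over 15 cells. The genotype effect differed between stages for 2 genes without the filter and for 1 with null cells that had a tdTomato UMI. For the mesoderm-biased label, 5 were called at E8.5 without the filter, and with at least 3 cells per library 3 at E9.5, 1 on the average, 1 between stages, and 35 (WT) and 46 (null) for stage.

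Marker values near 0 changed sign. *Sox2* was 0.021 at E9.5 by DESeq2, 0.030 at E9.5 and 0.0085 on the average with the WT-sorted tdTomato cells kept, and 0.0025 at E8.5 by limma-voom. *T* was 0.045 on the average by DESeq2, 0.0074 with at least 9 cells, and at E8.5 −0.32 by limma-voom and −0.36 with tdTomato-positive null cells. *Cdx2* was −0.037 at E8.5 by limma-voom, and −0.034 at E9.5 and −0.0082 on the average with at least 9 cells. The double-positive share was −0.70 percentage points with 2 UMIs of each gene.

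With 1 library left out, calls ranged from 0 to 4 at E8.5, 2 to 5 at E9.5, 0 to 3 for the difference between stages, 50 to 168 for stage in WT, 34 to 72 for stage in null, 0 to 6 for the mesoderm-biased label and 0 to 1 for NMPs against other cells. *T* ranged from −0.85 to 0.98 at E8.5, −0.61 to 0.33 at E9.5 and −0.50 to 0.41 on the average. *Sox2* ranged from −0.22 to 0.091, −0.29 to 0.15 and −0.15 to 0.070, and *Cdx2* from −0.20 to 0.28, −0.14 to 0.22 and −0.091 to 0.15. The E8.5 abundance ranged from −0.49 to 0.46 (NMPs) and −0.57 to 0.42 (mesoderm-biased), and the double-positive share from −2.97 to 6.50 percentage points. The cause was not tested. Fits that left an arm with 1 library assume that it varied like the others.

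No paired analysis was possible because the cell table names libraries by run and index, which no label ties to the replicate numbers that null and WT samples of a pool share. The planned minimums of more than 50 cells, and of more than 15 for each label alone, could not be run. With 6 to 64 NMPs per library, genes at a few CPM were hardly measurable.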

Other observations

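The E8.5 libraries differed within each genotype more than across it in several axial genes, and these values were chosen after they were seen. WT A and null A had low *Cdx1* (19 and 16 CPM) with high *Hoxc10* (126 and 137 CPM), *Hoxa10* (74.5 and 48.8 CPM) and *Wnt5a* (133 and 123 CPM). WT B and null B had high *Cdx1* (134.5 and 178 CPM) with lower *Hoxc10* (12.5 and 61.3 CPM), *Hoxa10* (6.23 and 20.4 CPM) and *Wnt5a* (73.9 and 73.0 CPM). The letters are only names and do not mark a shared pool.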
